A study of Homo sapiens with 36 samples.

Results

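Chromatin binding of tagged HIF-α proteins was examined at 9 genes of lipid storage and fatty acid handling. The genes were PLIN2, HILPDA, CPT1A, SCD, VLDLR, LPIN1, SCARB1, GPIHBP1 and ACLY, 9 of the 20007 protein-coding genes of the GENCODE 44 annotation of hg38. A peak belonged to a gene when its summit, the base of highest signal, lay in the gene body or within 50 kb on either side. The 18 anti-V5 peak lists held 468 such peaks out of 213711, and overlapping peaks were merged into 82 regions. Of these, 50 regions were called in at least 2 libraries, out of 25783 such consensus regions in the genome, and 32 were called in 1 library only.

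The series used Cut&Run, in which an antibody directs a nuclease to cut chromatin around the bound protein, in 786-O, a clear cell renal cell carcinoma line that lacks VHL and functional HIF-1α and keeps stable HIF-2α. Each of 6 lines had 3 anti-V5 and 3 mouse IgG libraries, and the labels give the same culture medium for all and no treatment. The study's methods keep the stable lines under puromycin selection, which they do not state for WT and KIN. The lines were unedited wild-type cells (WT), which carry no V5 tag; KIN, the single clone A31 with V5-Halo knocked in at both endogenous HIF-2α alleles; and 4 stable lines that expressed a V5-Halo fusion from an integrated transgene with the weak L30 promoter beside their own untagged HIF-2α. The 4 fusions were HIF-2α, HIF-1α and the chimeras HIF-2α/1α and HIF-1α/2α. In the chimeras the N-terminal part, which holds the DNA-binding and dimerization domains (DBD), was joined to the C-terminal part, largely an intrinsically disordered region (IDR), of the other isoform. HIF-2α/1α joined residues 1 to 365 of HIF-2α to residues 364 to 826 of HIF-1α, and HIF-1α/2α joined residues 1 to 363 of HIF-1α to residues 366 to 870 of HIF-2α. The 5 lines other than WT gave 15 tagged libraries.

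HIF-α subunits pair with HIF-1β and bind the hypoxia response element, a short motif with the core ACGTG or GCGTG, near genes of the response to low oxygen. Clear cell renal carcinoma takes its name from cytoplasm filled with lipid and glycogen, and the lipid is kept in droplets of neutral fat. PLIN2 coats these droplets, and HILPDA inhibits ATGL, the lipase that breaks down their triglycerides. ACLY makes the cytosolic acetyl-CoA from which fatty acids are built, SCD puts the first double bond into saturated fatty acids, and LPIN1 is a phosphatidate phosphatase that yields the diglyceride used for triglycerides. VLDLR takes up triglyceride-rich lipoproteins, SCARB1 is the HDL receptor, and GPIHBP1 carries lipoprotein lipase on capillary endothelium. CPT1A performs the rate-limiting step by which long-chain fatty acids enter mitochondria for oxidation. Expression was not measured in these libraries, so the values below describe where the tagged proteins were found and not what the genes did.

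The sequences at 5 of the member regions called in all 15 tagged libraries are shown here in hg38, read 5′ to 3′ in the direction of the member gene, because they are 3 of those that differed by IDR in the ranks below and the 3 strongest leading regions of a gene, SCD being both. Each stretch covers up to 100 bases on either side of the median summit, with transcribed bases shown for at most 30. Capitals mark ACGTG or GCGTG on either strand, the 2 spellings of the hypoxia response element core.
HILPDA promoter, chr7:128455751-128455878, plus strand: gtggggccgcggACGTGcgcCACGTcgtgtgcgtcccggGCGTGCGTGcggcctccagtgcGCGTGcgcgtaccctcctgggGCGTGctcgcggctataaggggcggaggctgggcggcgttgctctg
HILPDA, 45.4 kb upstream, chr7:128410359-128410559, plus strand: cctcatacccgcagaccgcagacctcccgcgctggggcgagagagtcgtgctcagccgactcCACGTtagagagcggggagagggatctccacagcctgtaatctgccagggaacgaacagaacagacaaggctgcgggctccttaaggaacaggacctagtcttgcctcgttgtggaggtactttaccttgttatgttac
PLIN2, 34.5 kb upstream, chr9:19161875-19162075, minus strand: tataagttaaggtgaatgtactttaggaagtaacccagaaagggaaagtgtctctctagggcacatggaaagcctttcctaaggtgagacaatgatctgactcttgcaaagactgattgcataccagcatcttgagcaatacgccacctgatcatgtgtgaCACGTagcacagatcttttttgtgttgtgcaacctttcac
SCD, 0.7 kb upstream, chr10:100346464-100346664, plus strand: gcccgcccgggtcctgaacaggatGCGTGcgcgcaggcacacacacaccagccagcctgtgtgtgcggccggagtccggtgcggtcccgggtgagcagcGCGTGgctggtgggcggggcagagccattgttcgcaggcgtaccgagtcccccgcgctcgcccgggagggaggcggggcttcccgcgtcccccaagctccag
SCARB1, 25.4 kb downstream, chr12:124838373-124838573, minus strand: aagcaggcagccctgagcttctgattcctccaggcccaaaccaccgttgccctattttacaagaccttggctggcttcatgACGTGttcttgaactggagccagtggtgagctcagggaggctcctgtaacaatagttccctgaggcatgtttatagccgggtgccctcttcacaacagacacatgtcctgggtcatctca
The HILPDA promoter held 6 copies of the core, of which 2 overlapped, in the 128 bases shown. The SCD sequence held 2 copies, one of them starting 1 base before the summit. The other 3 sequences each had 1 copy in capitals. It began 61 bases past the summit for PLIN2, 38 bases before it for the upstream HILPDA region and 19 bases before it for SCARB1.

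The libraries differed in how many peaks were called. The WT lists held 392, 9508 and 743 peaks in replicates 1, 2 and 3, and the tagged lists held 3984 to 20808. Replicate 2 gave the longest list in every line. In KIN it held 13193 peaks against 3984 and 7311, and in HIF-2α 20651 against 6590 and 5906. WT replicate 2 stood apart from the other WT libraries, and its peaks included 16 in the member windows, against 0 and 1. Tagged libraries had 14 to 43 peaks in these windows, which was 0.180% to 0.351% of each list. The lowest background that the deposited values imply was 0.241 to 0.536 fragments per base in 17 libraries, and it could not be recovered for HIF-2α/1α replicate 2. Absence of a peak at this depth means only that none was called. The labels number the replicates without saying whether they came from separate cultures, so p-values measure the spread between these libraries, which may be technical.

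HILPDA, PLIN2, SCD and ACLY carried the member regions that separated tagged from WT libraries. All 15 tagged libraries and none of the 3 WT libraries called 6 of the 50 regions, an exact Fisher p of 0.00123 and an adjusted p of 0.0263 over all consensus regions. The same rule passed 4.66% of all 25783 consensus regions. The 6 regions belonged to 4 of the 9 genes, whereas 10.9% of all protein-coding genes had such a region in a window drawn by the same rule. Member windows held 3 to 18 regions, 0 to 13 of them consensus, against a median of 2 regions over all protein-coding genes. These gene shares are therefore not like for like. Of the 1720 regions called in all 15 tagged libraries 1201 passed, and of the 8 such member regions 6 did. The 6 were the HILPDA promoter and a region 45.4 kb upstream of it, a region 34.5 kb upstream of PLIN2, a region 0.7 kb upstream of SCD, and 2 regions of ACLY, 1.5 kb downstream and 11.6 kb upstream of its canonical start. Because none of the 6 was called in any WT library, leaving out WT replicate 2 left the calls at 15 of 15 against 0 of 2, where the smallest attainable exact p is 0.00735 and no region in the genome could pass.

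**Figure D1:**
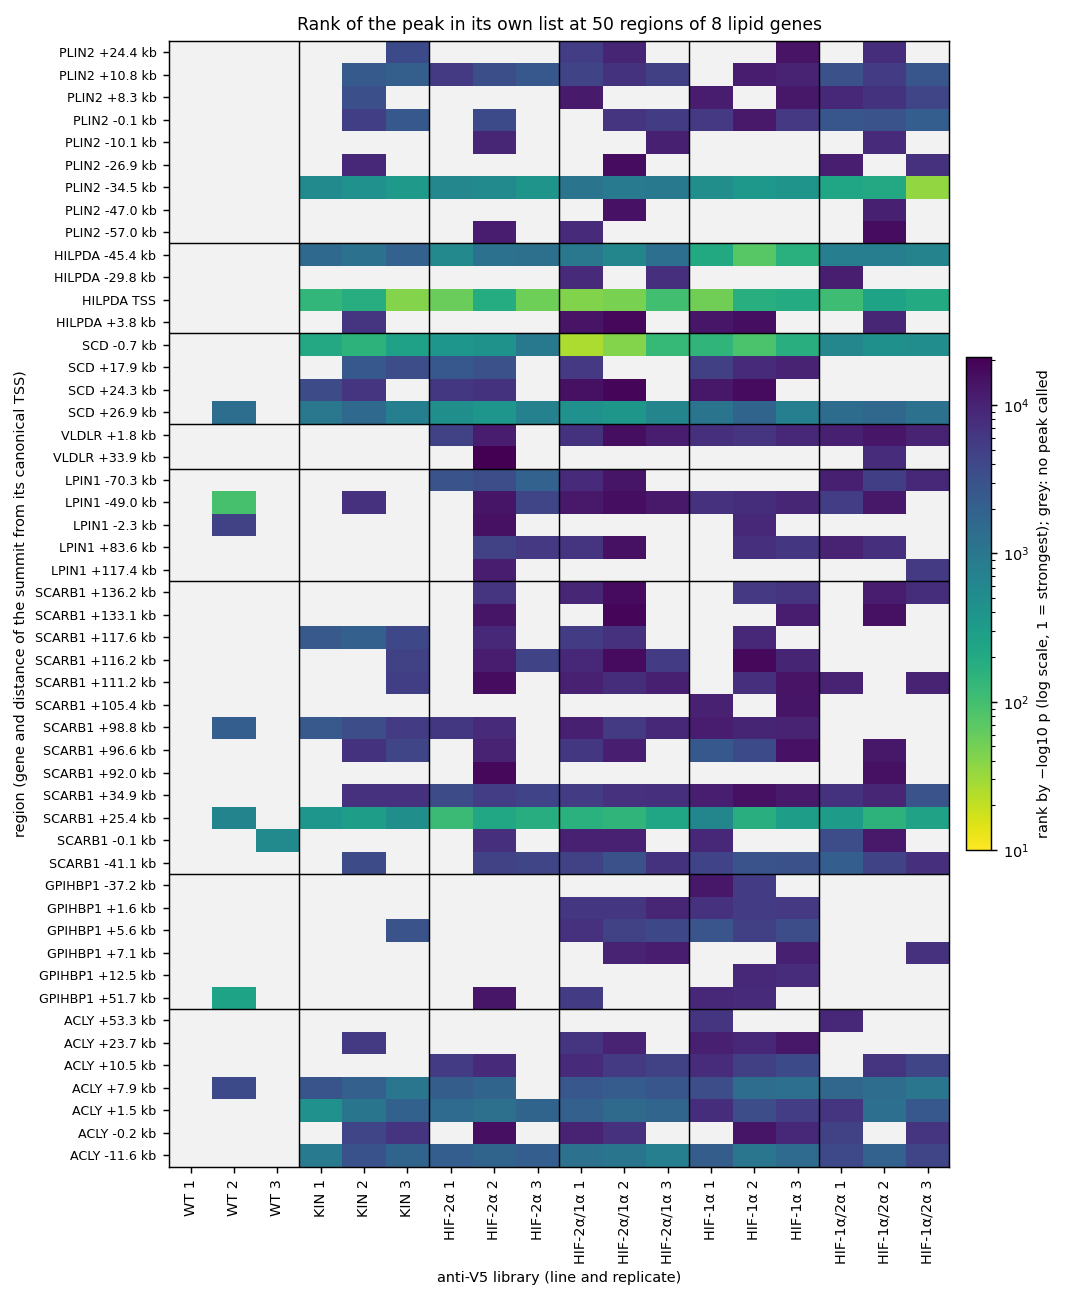
Each row is 1 of the 50 consensus regions, named by its gene and the distance of its summit from the canonical start, and each column is 1 anti-V5 library. Colour gives the rank of the region's best peak by −log10 p in that library's own list on a log scale, with rank 1 the strongest, and grey cells had no peak. In 8 rows all 15 tagged libraries had a peak, and the WT columns held 8 calls in all.

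Of the 50 regions, 42 were called in no WT library, 8 in 1 and 0 in 2 or more. A total of 8 were called in all 15 tagged libraries, against 1720 of all 25783 consensus regions, and 12 in at least 12. KIN, the line in which the tagged protein comes from the endogenous gene, had a call at 28 of the 50 regions, in at least 2 of its libraries at 18. The member was the gene with the nearest start site for 43 of the 50. By position, 32 regions lay between genes, 16 in introns, 2 in UTR exons and 0 in coding exons, and 9 lay within 1 kb of a start site. The other counts in this paragraph have no share over all regions beside them and only describe the members.

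The strongest binding at a droplet gene was at the HILPDA promoter. The region (chr7:128454069-128458417) was merged over libraries and runs over nearly the whole gene, with its median summit 27 bp upstream of the canonical start. Fold enrichment, the deposited pileup over local background, was 12.6, 24.0 and 59.9 in KIN replicates 1, 2 and 3, and 49.0, 34.4 and 36.3 in HIF-2α. It was 67.0, 80.5 and 29.5 in HIF-2α/1α; HIF-1α gave 35.5, 39.2 and 30.8, and HIF-1α/2α gave 43.6, 61.0 and 27.7. The lines overlapped throughout, and the summits of all 15 libraries fell within 4 bp of each other. By −log10 p the peak ranked 41 to 251 in its own list, with a median of 106. The second HILPDA region (chr7:128409769-128410997) ranked lower, with a median of 805 and folds of 5.23 to 108. Its summit lay 473 bp upstream of the start of IMPDH1, an enzyme of guanine nucleotide synthesis, which is the nearest gene, so the assignment to HILPDA rests on the window alone.

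PLIN2 was bound most strongly at a distance. The leading region (chr9:19161160-19163506) lay between genes, 34.5 kb upstream of the canonical start and 12697 bp upstream of the nearest annotated PLIN2 start. Its folds were 10.3, 22.0 and 21.7 in KIN, 25.6, 31.6 and 15.8 in HIF-2α, and 18.1, 23.5 and 13.8 in HIF-2α/1α. They were 19.3, 27.0 and 24.7 in HIF-1α and 36.6, 38.9 and 91.3 in HIF-1α/2α, so that every HIF-1α/2α library exceeded all libraries of the other lines. PLIN2 also had weaker regions inside the gene. The one in an intron 10.8 kb downstream (chr9:19116517-19117613) was called in 13 tagged and 0 WT libraries with a median fold of 11.1. The one at the canonical start itself (chr9:19127447-19127985), described because of its position after its values were seen, was called in 11 tagged and 0 WT libraries with a median fold of 10.8. The median rank was 439 for the distal region, 4427 for the intronic one and 5019 at the start.

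Among the synthesis genes, SCD had the highest median fold of all 50 member regions, 42.8. At its upstream region (chr10:100345121-100347689) the fold was 26.9, 83.6 and 36.4 in KIN and 34.4, 51.2 and 14.0 in HIF-2α. It reached 147, 104 and 55.9 in HIF-2α/1α, and was 30.9, 57.3 and 37.3 in HIF-1α and 39.6, 64.1 and 42.8 in HIF-1α/2α. HIF-2α/1α gave the highest values, and its replicate 3 fell within the range of the other lines. A further SCD region 26.9 kb downstream of the start (chr10:100372835-100374594), past the end of the gene, was called in all 15 tagged libraries and in WT replicate 2. Its folds in the tagged libraries were 7.41 to 74.0 with a median of 15.8. WT replicate 2 gave 7.03 there, with its summit at −610 bp from the region's in chromosome coordinates. The best summits of 12 tagged libraries were within 200 bp of the region's, a count made after the values were seen. Those of KIN replicates 1 and 2 and HIF-1α replicate 1, at −533, −542 and −541 bp, lay beside the WT one.

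ACLY had 3 regions called in at least 14 tagged libraries. The leading one, in an intron 1.5 kb downstream of the canonical start (chr17:41917123-41918633), had folds of 6.65 to 55.8 and a median of 18.8. The region at the upstream start (chr17:41929842-41930916) had folds of 5.43 to 31.8 and a median of 9.88. Its summit lay 9 bp upstream of one ACLY start and 66 bp upstream of the divergent start of ODAD4, a cilium gene, so its peaks cannot be assigned to one of the pair. A further region, 7.9 kb downstream (chr17:41910092-41911710), was called in 14 tagged libraries with a median fold of 11.9. WT replicate 2 also called that region, at a fold of 3.48 and with its summit elsewhere in it. At the canonical start (chr17:41918879-41919439) a peak was called in 9 tagged and 0 WT libraries.

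LPIN1 had weaker peaks, and its best-called region was not separated from WT. That region, in an intron (chr2:11697372-11698477), was called in 11 tagged libraries at folds of 2.73 to 8.03, and 1 of these was a KIN library. WT replicate 2, which carries no tag, gave 15.6 there with its summit within 200 bp, above every tagged library. A second region (chr2:11676169-11676783) lay 1306 bp upstream of the nearest annotated LPIN1 start. It was called in 8 tagged, 0 KIN and 0 WT libraries at folds of 4.89 to 18.7, with a median of 8.21. This second region did not pass against WT either (exact Fisher adjusted p = 0.639).

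Of the uptake genes, SCARB1 had the strongest region. It lay in an intron 25.4 kb downstream of the canonical start (chr12:124835616-124838860), and all 15 tagged libraries had a summit within 200 bp of the region's summit. The fold was 11.3, 36.0 and 11.5 in KIN, 42.6, 42.0 and 39.1 in HIF-2α, and 85.4, 53.0 and 27.2 in HIF-2α/1α. It was 18.9, 111 and 30.2 in HIF-1α and 27.6, 79.1 and 38.6 in HIF-1α/2α, so the lines overlapped. These are the best peaks of each library in the region, and those of HIF-1α replicate 2 and HIF-2α replicate 3 had their summits at −2156 and −2137 bp from the region's summit in chromosome coordinates. The median rank was 236.5. WT replicate 2 also had a peak in this region, at a fold of 9.49 and rank 673.5, and the region did not pass the test against WT. The summit of that WT peak lay at −2142 bp, beside the best peaks of those 2 tagged libraries, and 0 WT libraries had a summit within 200 bp of the region's. SCARB1 had 13 consensus regions, the most of the 9 genes. An intronic one 34.9 kb downstream was called in 14 tagged and 0 WT libraries with a median fold of 5.85. At the canonical SCARB1 start a peak was called in 6 tagged libraries and, at the same place, in WT replicate 3 at a fold of 6.22, just below the tagged range of 6.52 to 13.7.

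VLDLR had 0 peaks in KIN, and GPIHBP1 had 1. The leading VLDLR region, at 1.8 kb past the canonical start (chr9:2621408-2624073), was called in 11 of the 12 exogenous libraries, all but HIF-2α replicate 3, and in 0 of 3 WT libraries. Its folds were 4.1 to 10.6, its median rank was 9808, and its summits spread over 2369 bp, with 8 within 200 bp of the region's. GPIHBP1 had 6 consensus regions, all weak, and its best was called in 7 tagged libraries. CPT1A had 0 consensus regions. Each of its 3 peaks was called in 1 library, and one of those was a WT library. The strongest tagged one, at a fold of 5.93 and rank 11352.5 in HIF-2α/1α replicate 1, lay 110 bp from the start of TESMIN.

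**Figure D2:**
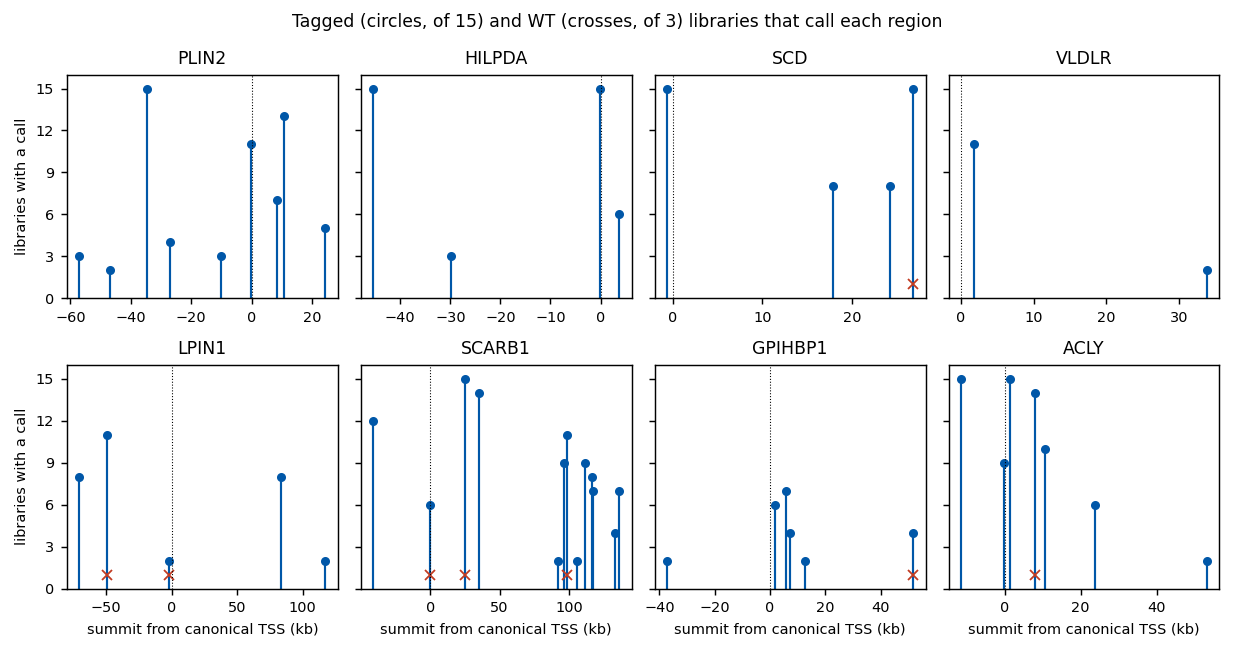
Each panel is 1 of the 8 genes with a consensus region, and each stem is a region at the distance of its summit from the canonical start in kb (dotted line at 0, negative upstream). Circles give how many of the 15 tagged libraries called it and red crosses how many of the 3 WT libraries did. The 8 regions that reached 15 lay at both a start-side and a distant place at HILPDA and SCD, at 1.5 kb downstream and 11.6 kb upstream at ACLY, 34.5 kb upstream at PLIN2 and 25.4 kb downstream at SCARB1.

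Differences in calls by DBD and by IDR were tested over the 12 exogenous libraries, 6 with each domain. GPIHBP1 showed the widest split. Its region 1.6 kb downstream of the start (chr8:143214611-143215003), in an intron, was called in 6 of 6 libraries with the HIF-1α IDR at folds of 6.51 to 13.5 and in 0 of 6 with the HIF-2α IDR. Its region 5.6 kb downstream (chr8:143218622-143219197) was split in the same way, with folds of 5.41 to 8.54 in HIF-2α/1α and 8.08 to 12.1 in HIF-1α, and was also called in KIN replicate 3 at 6.39. ACLY had an intronic region 23.7 kb downstream (chr17:41894833-41895519) called in 5 of 6 against 0 of 6, and in KIN replicate 2. These 3 of the 50 regions had an exact Fisher p under 0.05 before adjustment (0.00216, 0.00216 and 0.0152), all with more calls under the HIF-1α IDR, against 1.32% of the 25285 regions tested. The HIF-2α IDR lists held 5906 to 20651 peaks and the HIF-1α IDR lists 12371 to 20808. In lists shortened to 3984 peaks, 0 of the regions that remained had an unadjusted exact Fisher p under 0.05. The first GPIHBP1 region and the ACLY region could not remain. Their tagged peaks ranked 5478 to 9129.5 and 5771.5 to 12729, all past that cut. Whether list length made the split was not tested. None of the 50 regions passed after adjustment, and neither did any region of the genome. The smallest adjusted p was 1, and 44 regions had the same split of 6 against 0. With 6 libraries on each side the exact Fisher p cannot fall below 0.00216. So few full splits among 25285 regions could therefore not pass. By DBD, 0 of the 50 regions had an exact p under 0.05 before adjustment, against 0.562% of all regions tested.

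**Figure D3:**
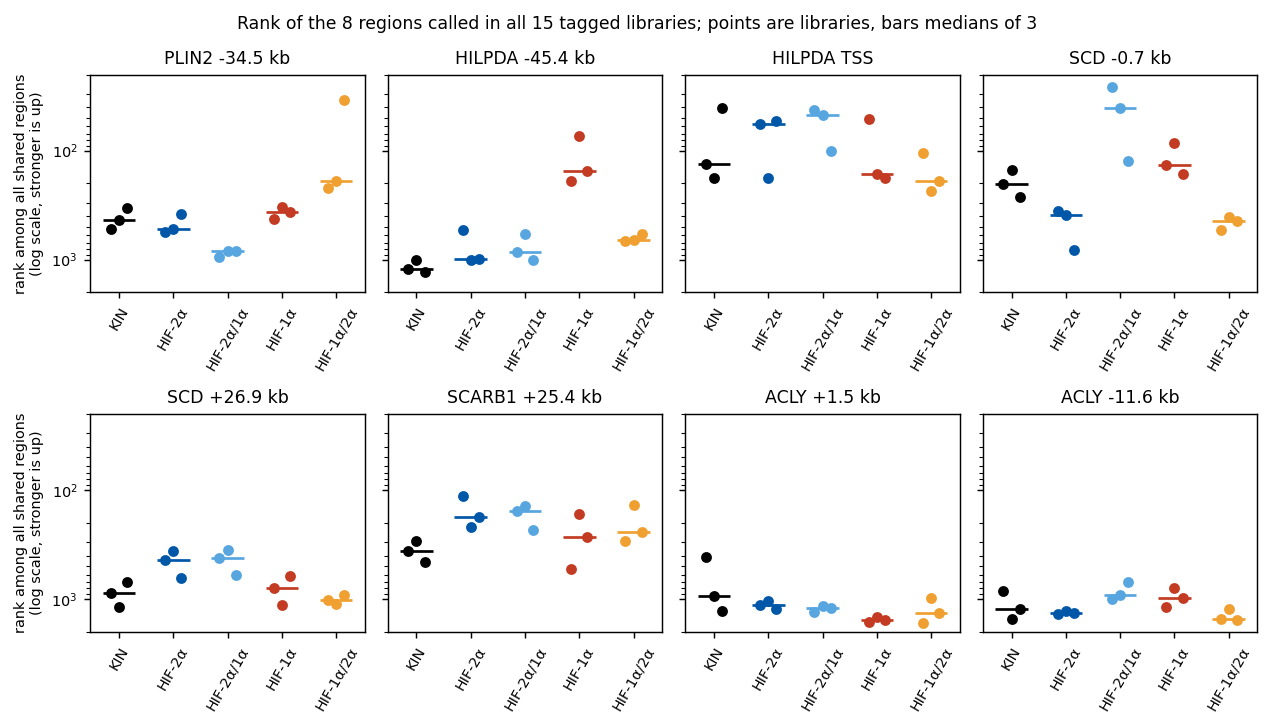
Each panel is 1 of the 8 member regions called in all 15 tagged libraries, each point a library and each bar the median of the 3 libraries of a line. The vertical axis, on a log scale with the strongest at the top, is the rank by −log10 p among the 1720 regions that all 15 libraries called. At SCD −0.7 kb the HIF-2α/1α and HIF-1α libraries lay above all HIF-2α and HIF-1α/2α libraries.

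For regions called in every tagged library, strength was compared by rank among the 1720 regions that all 15 shared, with 1 the strongest. Ranks were turned into normal scores, which are in units of the standard deviation of the scores within a library, and fitted with limma. The promoter-side SCD region ranked higher with the HIF-1α IDR than with the HIF-2α IDR. Its ranks were 26, 41 and 124 in HIF-2α/1α and 136, 85 and 164 in HIF-1α, against 359, 394 and 816.5 in HIF-2α and 531, 411 and 446.5 in HIF-1α/2α. The 2 sets did not overlap, with 26 to 164 (median 104.5) against 359 to 816.5 (median 428.75). The difference in score, HIF-2α IDR minus HIF-1α IDR, was −1.09 ± 0.181 (SE; limma adjusted p = 0.00128). By DBD the same region differed by 0.17 ± 0.181 (limma adjusted p = 0.576).

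The ACLY region at the upstream start also ranked higher with the HIF-1α IDR. It ranked 994.5, 927 and 701 in HIF-2α/1α and 1185, 800 and 974 in HIF-1α. It ranked 1369.5, 1304 and 1340 in HIF-2α and 1533.5, 1246 and 1570 in HIF-1α/2α, again with no overlap between the IDRs. The difference was −0.81 ± 0.212 (SE; limma adjusted p = 0.0119), and by DBD it was 0.23 ± 0.212 (limma adjusted p = 0.508). Its neighbour 1.5 kb past the canonical start did not pass in either comparison, with 0.31 ± 0.261 by IDR and 0.67 ± 0.261 by DBD (limma adjusted p = 0.416 and 0.0990).

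The PLIN2 distal region went the other way by IDR and differed by DBD as well. It ranked 222, 192 and 34 in HIF-1α/2α and 427.5, 329 and 366.5 in HIF-1α. In HIF-2α it ranked 564, 523 and 379.5, and in HIF-2α/1α it ranked 940.5, 834 and 827. Within each DBD the line with the HIF-2α IDR held the stronger ranks: 34 to 222 against 329 to 427.5, and 379.5 to 564 against 827 to 940.5. The difference by IDR was 0.64 ± 0.177 (SE; limma adjusted p = 0.0164), and that by DBD, HIF-2α minus HIF-1α, was −0.84 ± 0.177 (limma adjusted p = 0.00409), with the HIF-1α DBD stronger. Pooled over the other domain, both pairs of sets overlapped.

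HIF-1α gave the strongest ranks at the upstream HILPDA region, 192, 73 and 155. The ranks were 678, 665 and 585 in HIF-1α/2α, 536.5, 1001 and 982.5 in HIF-2α, and 860.5, 588 and 1019 in HIF-2α/1α. The differences were −0.56 ± 0.182 by IDR and −0.83 ± 0.182 by DBD (SE, limma adjusted p = 0.0366 and 0.00586). Averaged over the other domain, the HIF-1α domain was stronger each time. On the HIF-2α DBD the IDRs hardly differed, with mean scores of 0.0354 in HIF-2α and 0.0584 in HIF-2α/1α. On the HIF-1α DBD they were 0.324 in HIF-1α/2α and 1.43 in HIF-1α. The IDR difference at this region was lost when any one of 8 of the 12 exogenous libraries was left out (limma adjusted p = 0.0514 to 0.0909). These were HIF-2α replicates 2 and 3, HIF-2α/1α replicates 1 and 2, HIF-1α replicate 2 and all 3 replicates of HIF-1α/2α. The HILPDA promoter ranked 42 to 235 in the 12 exogenous libraries, and its differences, −0.18 ± 0.192 by IDR and 0.35 ± 0.192 by DBD, did not pass (limma adjusted p = 0.527 and 0.238).

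The downstream SCD region ranked higher with the HIF-2α DBD. It ranked 439, 365 and 643.5 in HIF-2α and 422, 356 and 601.5 in HIF-2α/1α, against 803, 1133 and 613 in HIF-1α and 1018, 1123.5 and 912.5 in HIF-1α/2α. One HIF-1α library lay within the range of the HIF-2α DBD. The rank of 803 in HIF-1α replicate 1 comes from the peak beside the WT replicate 2 summit. The difference by DBD was 0.72 ± 0.186 (SE; limma adjusted p = 0.0158) and that by IDR was −0.14 ± 0.186 (limma adjusted p = 0.610). SCARB1 passed in neither comparison, with 0.12 ± 0.173 by IDR and 0.25 ± 0.173 by DBD (limma adjusted p = 0.660 and 0.364).

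In all, 4 of the 8 member regions passed by IDR. Averaged over the DBDs, PLIN2 was stronger with the HIF-2α IDR, as were 11.2% of the 1720 shared regions. In the same averages the upstream HILPDA region, SCD and ACLY were stronger with the HIF-1α IDR, as were 10.4%. The 6 libraries of each IDR did not overlap at 2 of these, SCD and ACLY, both with the HIF-1α IDR stronger, a pattern held by 3.2% of shared regions. No member showed the opposite pattern, held by 3.72%. By DBD, 3 of the 8 passed: the downstream SCD region with the HIF-2α DBD stronger (5.35% of shared regions), and PLIN2 and the upstream HILPDA region with the HIF-1α DBD stronger (8.49%). At 0 of the 8 did the 6 libraries of each DBD not overlap, against 1.45% of shared regions with the HIF-2α DBD stronger and 3.66% with the HIF-1α DBD stronger. The median difference over the 8 was −0.16 by IDR and 0.24 by DBD, against −0.01 and 0.05 over all shared regions. An exact two-sided permutation of the lines within the other domain, added after the data were seen, gave p = 0.005 for SCD, ACLY and PLIN2 by IDR and for PLIN2 and the downstream SCD region by DBD. That is the smallest value its 400 relabellings allow. This exact permutation gave p = 0.05 by IDR and 0.02 by DBD for the upstream HILPDA region. Where limma did not pass, the exact permutation gave p = 0.025 for ACLY 1.5 kb downstream and 0.05 for the HILPDA promoter, both by DBD. Elsewhere its p was 0.12 or more. Ranking the same regions by fold instead of −log10 p kept all 7 directions and ended all 7 calls (limma adjusted p = 0.107 to 0.348). Under that ranking 19 of the 1720 regions passed by IDR instead of 371, and 32 by DBD instead of 238. The interaction of IDR and DBD passed limma's test at 0 of 8 members and 0% of shared regions. At an unadjusted limma p under 0.05 the interaction held 1 member, the upstream HILPDA region (1.08 ± 0.364, limma unadjusted p = 0.00832, adjusted p = 0.695), and 86 shared regions.

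**Figure D4:**
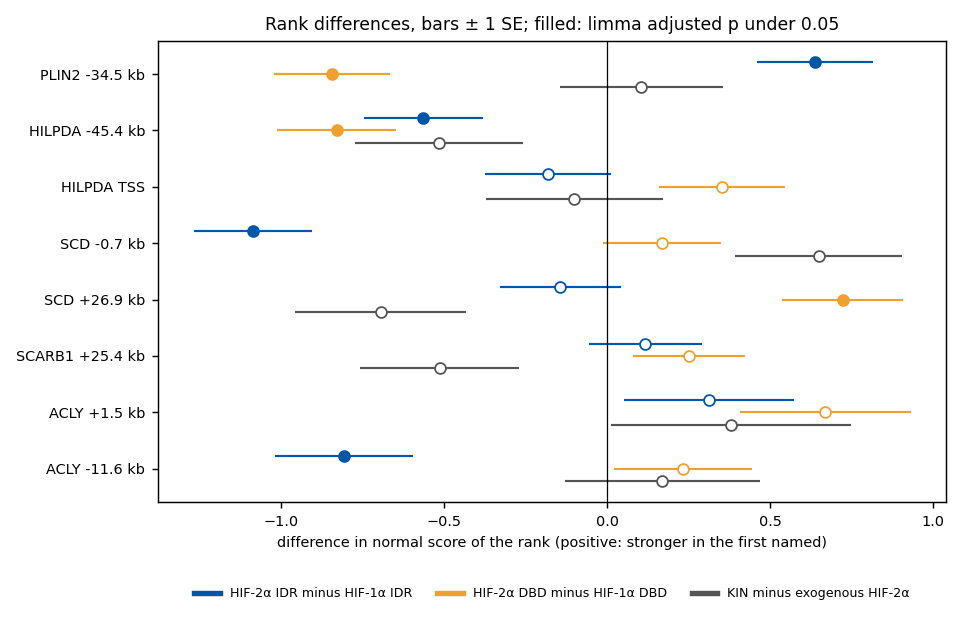
Differences in normal score with their standard errors for the 8 regions called in all 15 tagged libraries, by IDR (blue), by DBD (orange) and for KIN against exogenous HIF-2α (grey). Positive values are stronger in the first named, and filled points had a limma adjusted p under 0.05. The filled points are 4 blue and 3 orange, with no grey one.

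KIN and the exogenous HIF-2α line carry the same tagged protein at endogenous and transgene expression. Of the 8 regions, 0 differed between them after adjustment, against 6.28% of shared regions. At an unadjusted limma p under 0.05, 2 of the 8 did, both at SCD. The share was similar over all shared regions, 425 of 1720. The promoter-side SCD region ranked 203, 150 and 265 in KIN against 359, 394 and 816.5 in HIF-2α, a difference of 0.65 ± 0.256 (SE; limma adjusted p = 0.128). The downstream SCD region ranked 879.5, 1193 and 705 against 439, 365 and 643.5, a difference of −0.69 ± 0.263 (limma adjusted p = 0.115). In KIN replicates 1 and 2 the best peak at the downstream SCD region was the one beside the WT replicate 2 summit. The 3 KIN and 3 HIF-2α libraries also did not overlap at the upstream HILPDA region and at SCARB1, where KIN ranked lower, making 4 of 8 against 27.3% of shared regions. At the HILPDA promoter KIN ranked 133, 179 and 41 and HIF-2α 57, 179 and 53 (limma adjusted p = 0.853).

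The hypoxia response element core was counted within 50 bp of each median summit. ACGTG or GCGTG on either strand was present at 17 of the 50 member regions (34%), against 24.4% of all consensus regions and 34.6% of the 1720 shared ones. Of the 8 members called in all tagged libraries, 6 had it within 50 bp and 8 within 100 bp, where the share of the 1720 was 67.9%. The ACGTG spelling alone was at 8 of the 50 (16%, against 11.8%), and the SCD promoter carried GCGTG. The AP-1 site, TGACTCA or TGAGTCA, was at 3 of the 50 (6%, against 8.32%) and at 0 of the 8. The E-box CACGTG, which contains the ACGTG core on both strands and is bound by MYC and SREBP family factors, was at 3 of the 50 (6%, against 2.73%). The sterol response element TCACNCCAC, bound by SREBP, was at 0 of the 50 against 0.493%. These are matches of letters and not measured sites.

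Other genes of the same pathways were read by the same rule from a list of 82. A region called in all tagged and no WT libraries lay in the window of 11 of the 82. That share is near the 10.9% of all protein-coding genes given above, so the genes named next only describe the list. ANGPTL4, a secreted inhibitor of lipoprotein lipase, had 2 such regions, the leading one 1909 bp upstream of its start with a median fold of 31.1 and a median rank of 253.5. LMF1, which matures lipoprotein lipase, followed by rank, with a median fold of 29.9 and a median rank of 267. PLIN3, a droplet coat protein related to PLIN2, had a region with a median fold of 15.4 and a median rank of 1329, and MGLL, the monoglyceride lipase, one with 14.3 and 2346. AGPAT2 and ACSL3, which act in triglyceride synthesis and fatty acid activation, and LIPC, the hepatic lipase, also passed. At BSCL2, ELOVL6, LRP1 and FABP7 the passing region lay nearer to the start of another gene, HNRNPUL2, EGF, STAT6 and SMPDL3A respectively. INSIG1 and INSIG2, which hold SREBP in the endoplasmic reticulum, had promoter regions called in all 15 tagged libraries at median ranks of 116 and 417.5, each with 1 WT call, and did not pass. FASN, the fatty acid synthase that follows ACLY in the pathway, had no region called in more than 4 tagged libraries, and LPL had 0 consensus regions.

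The shared regions whose ranks moved most like a member's across the 15 tagged libraries were named by Pearson's r of the normal scores, as a description. The HILPDA promoter was most like regions nearest to KMT2E (r = 0.753), MYO1E (0.734) and HES1 (0.718). SCD 0.7 kb upstream was most like promoter regions of TENT4A (0.893), RSBN1 (0.869) and GPT2 (0.864), whose summits lay 392, 89 and 181 bp upstream of their starts. The libraries share an antibody and, within a line, its cells, so the 15 points are not independent.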

How the data were processed

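Anti-V5 and mouse IgG Cut&Run libraries were made from 6 lines in 3 replicates each. The authors aligned reads to hg38 with Bowtie2 2.3.4.1, handled alignments with SAMtools 1.8, called peaks in each anti-V5 library against IgG with MACS2 (version not given in the sources used here; q of 0.01, maximum gap 400 bp, duplicates kept) and removed blacklisted regions with BEDTools 2.28.0, without pooling replicates. Duplicates were kept and the lists differ in length and depth, so ranks within a list were compared and not heights. The deposited lists give each peak a fold, the ratio of its pileup to the local background, and a −log10 p and −log10 q from the authors' peak caller; the position of the summit is an offset from the start. The IgG libraries entered through the peak calling only.

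Peaks were merged where they overlapped by 1 bp, and regions of at least 2 libraries were kept. Calls were compared with two-sided exact Fisher tests, Benjamini-Hochberg adjusted over all regions, leaving out of the DBD and IDR tests the 498 regions called in at least 2 WT libraries. Ranks by −log10 p among the 1720 regions called in all 15 tagged libraries were turned into normal scores and tested with limma 3.58.1 in R 4.3.3 over the 5 tagged lines, and adjusted over the 1720. The rest used Python 3.11.15, NumPy 2.4.6, pandas 2.3.3 and SciPy 1.17.1, and scripts were tested on simulated data. There, with 200 of 1720 regions shifted by IDR, the rank test recovered 0% at a true difference of 0.5 and 69% at 1. At a difference of 1 it also called 2.76% of the other regions. A rank difference that did not pass is therefore not shown to be absent. Background depth was solved from each list's fold and −log10 p values. Distances run from the canonical GENCODE 44 start, and sequences are from hg38; 1 region and 1 sequence are not reported here. The text names each gene's leading region, those called in at least 12 tagged libraries and those past a test or with an unadjusted p under 0.05 in calls by IDR or DBD, except the region not reported, plus the region at the canonical start, which was added after seeing the data. A second LPIN1 region was also added after seeing the data. Members and gene lists were chosen with earlier results of these data known. Alternatives were a −log10 q of at least 5, lists shortened to the top peaks of the shortest tagged list, windows of 25 and 100 kb, an overlap of 100 bp, a replicate block, ranking by fold, exogenous libraries alone, other motif settings and leaving out each library.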

Additional observations from a re-analysis of the deposited data

How the results depend on the processing

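The 6 member regions and 4 member genes that separated tagged from WT libraries rest on all 3 WT libraries. Leaving out each library in turn gave 0 to 7 regions, 0 to 5 genes and 0 to 15 pathway genes, and the 0 came from leaving out any WT library, since 15 against 2 cannot go below an exact p of 0.00735. Stratifying the exact test by replicate number (replicate block) gave 0 regions, since its smallest p of 0.00463 cannot pass either. Shortening every list to 3984 peaks left 20 of the 50 consensus regions, and leaving out a library left 47 to 50. The HRE count fell from 17 to 8 with ACGTG alone. Ranking by fold gave 0 regions by IDR and 0 by DBD instead of 4 and 3, and the cause was not tested. Leaving out each library gave 3 to 4 by IDR and 3 to 4 by DBD. No regions of IDR-dependent calls, DBD-dependent calls, KIN or interaction passed under any alternative run. For the calls, the exact Fisher p of 6 against 6 libraries cannot go below 0.00216, so these tests could hardly pass. The 7 single-region rank differences kept their direction in all 146 alternative runs. The exact permutation and the replicate block, both among these runs, could not change the direction. A total of 17 runs lost the call: 7 when ranked by fold and 10 more at the upstream HILPDA region by IDR. Those 10 included the exogenous libraries alone (limma adjusted p = 0.0509) and the exact permutation (p = 0.05). The 3 regions with more calls under the HIF-1α IDR before adjustment were 0 in the shortened lists. Every tagged peak of GPIHBP1 1.6 kb downstream and ACLY 23.7 kb downstream ranked past that cut.

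Replicate numbers are shared by the lines but nothing in the labels ties them to a day or culture. The deposited library numbers run consecutively over the lines within each replicate, also without naming a day or culture. Same-numbered libraries deviated together over 0.1 in 1 of 45 pairs by calls (−0.0419 to 0.126). By normal scores 13 of 30 pairs did, and all 30 correlations were positive (0.0293 to 0.18, median 0.0844). Replicate 2 also gave the longest list in every line. For lack of a label the numbers were not taken as a pairing, and what same-numbered libraries share was not tested. With the replicate number as a block, limma gave 4 regions by IDR, 3 by DBD, 0 for KIN and 0 for the interaction. The lists held 392 to 20808 peaks, and calls at weak regions are limited by this.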
